A study of Mus musculus with 7 samples.

Results

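The 7 genes described here, *Atxn1*, *Atxn2*, *Atxn3*, *Cacna1a*, *Tbp*, *Atn1* and *Htt*, are the mouse counterparts of human genes in which a long CAG repeat in the coding sequence causes a neurodegenerative disease. They were chosen by symbol in a GRCm38 annotation. All 7 were found once among the 52550 genes of the count table, and all 7 passed the filter on low counts that left 20128 genes for testing. The question asked of them is how strongly each is transcribed in the normal mouse retina, and whether its level differs in the retina of mice that carry a polyglutamine expansion in another gene of the same class, *Atxn7*.

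The data are total RNA-seq libraries from the retinas of 7 mice of the strain C57BL/6J, all 12.5 weeks old, with 1 library from the 2 retinas of each mouse. In the 3 SCA7 mice, which are labelled as homozygous knock-ins (SCA7 140Q/140Q), both alleles of *Atxn7* carry 140 to 150 CAG repeats and are driven by the gene's own promoter in all cells that use it. The 4 WT mice carry the unexpanded gene. The labels give no sex and no processing batch, and whether the mice of a genotype were littermates is not given for these libraries.

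Polyglutamine diseases share a mutation type and little else in the function of the normal proteins. The expanded CAG repeat is translated into a long run of glutamine, which can make the protein prone to aggregate, and different neurons are lost in each disease although the genes are widely expressed. ATXN7 is a subunit of SAGA, a complex that acetylates and deubiquitinates histones, and spinocerebellar ataxia type 7 is the member of the group in which the retina degenerates along with the cerebellum. *Atxn1* is the gene of spinocerebellar ataxia type 1, *Atxn2* of type 2, *Atxn3* of type 3 (Machado-Joseph disease), *Cacna1a* of type 6 and *Tbp* of type 17. *Atn1* is the gene of dentatorubral-pallidoluysian atrophy and *Htt* that of Huntington disease.

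The reference mouse genes hold short repeats. In the transcript with the longest coding sequence of each gene, runs of consecutive glutamine codons (CAG or CAA) were searched and the longest run was taken. It had 13 codons in *Tbp*, 7 in *Htt* and 6 in *Atxn3*, and 3 in each of *Atxn1*, *Atxn2*, *Cacna1a* and *Atn1*, against a median of 2 over the 21505 protein-coding genes searched. A run as long as that of *Tbp* or longer was found in 0.242% of these genes, one as long as that of *Htt* in 0.684% and one as long as that of *Atxn3* in 0.86%. A run of 3 or more was found in 8.97% of genes. *Atxn7* itself has 5 codons there, all CAG, the same number as in the 5Q allele that the series title names. The runs were not aligned to the human genes, so a short run of 3 need not lie at the place of the human expansion.

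The longest runs of the 3 genes with 6 codons or more are shown with that of *Atxn7*, the gene expanded in these mice, and that of *Atxn1*, the gene with the largest change below. Each is printed 5′ to 3′ on the coding strand from the GENCODE M21 transcripts (GRCm38), with 5 codons on either side; capitals mark the CAG codons of the run, and the CAA codons of the run are in lower case among or beside them.
Tbp: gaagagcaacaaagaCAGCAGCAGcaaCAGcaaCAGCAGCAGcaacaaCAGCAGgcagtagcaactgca
Htt: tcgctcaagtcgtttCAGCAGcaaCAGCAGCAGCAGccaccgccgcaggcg
Atxn3: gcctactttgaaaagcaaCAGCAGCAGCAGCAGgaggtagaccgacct
Atxn7: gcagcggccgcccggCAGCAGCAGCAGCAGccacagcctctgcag
Atxn1: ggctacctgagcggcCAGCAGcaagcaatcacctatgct

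In *Tbp* the run covers chr17:15504391-15504429 on the plus strand, in exon 3 of 8, and is made of 9 CAG and 4 CAA codons, with no more than 3 CAG codons in a row. In *Htt* it covers chr5:34761958-34761978 on the plus strand, in exon 1 of 67, from codon 18 to codon 24. In *Atxn3* it covers chr12:101926563-101926580 on the minus strand, in exon 10 of 11, and the sequence printed before it reaches back into the preceding exon. The *Atxn7* run covers chr14:14013156-14013170 on the plus strand, in exon 2 of 13 of the transcript used. The *Atxn1* run covers chr13:45567080-45567088 on the minus strand, in exon 7 of 8, from codon 444 to codon 446 of 799. It was not matched to the place of the human repeat and is not to be read as its counterpart. The deposited values are reads per gene and hold no measure of repeat length.

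The libraries held between 56497675 and 96635832 counts on genes, so that 1 count was worth 0.0103 to 0.0177 CPM (counts scaled to a common library size) before further scaling. CPM values below are scaled with TMM factors, which correct library totals for differences in composition, and errors are SD over mice (n = 4 WT, n = 3 SCA7). The 100 genes with the most counts took 32.3% to 36.8% of the WT libraries and 26.0% to 26.5% of the SCA7 libraries. No pair of libraries was within sampling noise of each other, and the first principal component, with 54.3% of the variance, separated the genotypes. The retinal identity of the samples was checked with lists of cell type markers. All 10 rod markers and all 10 cone markers listed were lower in SCA7, with median log2 fold changes of -1.20 and -1.96, and all 10 microglia markers were higher, with a median of 1.20. *Gfap*, a marker of reactive glia, was at 18.4 ± 3.95 CPM in the WT and 90.1 ± 4.97 CPM in the SCA7 mice.

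The knock-in gene was examined first. *Atxn7* had 41.1, 38.4, 33.7 and 43.7 CPM in the 4 WT libraries and 39.9, 38.6 and 34.2 CPM in the 3 SCA7 libraries. The groups overlapped, and the log2 fold change was -0.06 ± 0.09 (fold changes are given ± their standard error, SE; adjusted p = 0.636). Adjusted p-values are from the quasi-likelihood test of edgeR, corrected by Benjamini-Hochberg across the 20128 genes tested. The count of *Atxn7* covers the whole gene, which both alleles share, so it does not check the genotype.

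*Atxn1* was the member with the largest change between the genotypes. It was downregulated to FC (SCA7/WT) 0.627 in SCA7 retina, and *Atxn2* was lower by a smaller amount, FC 0.883. *Tbp*, *Cacna1a*, *Atxn3*, *Htt* and *Atn1* did not pass the test. Of the 7 genes, 2 were lower at an adjusted p under 0.05, where 14.2% of all genes tested were lower (2852 genes), and 0 were higher, where likewise 14.2% were higher (2853 genes). By limma-voom and by the DESeq2 Wald test 0 were higher as well, and no member that was higher had an unadjusted p under 0.05. With the fold limits that the study used, 1 of 7 was downregulated (FC under 0.7) beside 7.91% of all genes, and 0 were upregulated (FC above 1.3) beside 7.47%. Over the 7 genes the log2 fold change had a median of -0.09, and over all genes tested a median of -0.02, with a median absolute change of 0.21 and quartiles at -0.26 and 0.17.

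**Figure D1:**
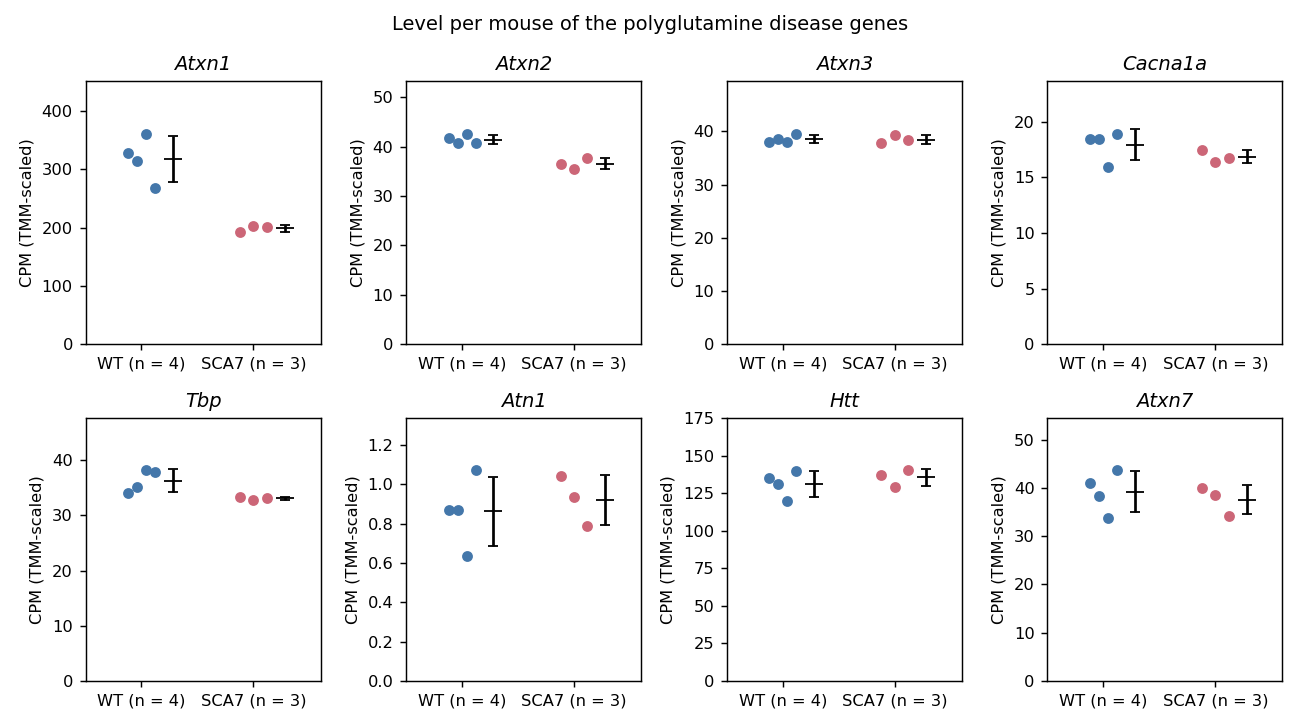
TMM-scaled CPM of the 7 genes and of the knock-in gene Atxn7 in each library; every point is 1 mouse, and the bar beside each group gives its mean and SD (n = 4 WT, n = 3 SCA7). The axes start at 0 and differ between genes: the 3 SCA7 points of Atxn1 lie between 192 and 203 CPM, under all WT points, while the groups of Atxn3, Htt and Atxn7 overlap.

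Among the genes that act on transcription, *Atxn1* encodes a chromatin-associated protein that binds the transcriptional repressor Capicua. It lies at chr13:45549755-45965008 on the minus strand. Its levels in WT retina were 328, 314, 361 and 267 CPM, and those in SCA7 retina were 192, 203 and 202 CPM. Every SCA7 library was below every WT library, and the WT libraries were spread more widely, with a coefficient of variation of 12.3% against 3.0% in SCA7. The WT mean was 318 ± 39.0 CPM and the SCA7 mean 199 ± 5.97 CPM, and the log2 fold change was -0.67 ± 0.09 (95% interval -0.87 to -0.48, adjusted p = 0.000188, edgeR). The exact two-sided permutation test over the 35 choices of 3 libraries gave p = 0.0286, the smallest it can give. The lower level held in each of the 17 other scalings, filters, tools and left-out libraries tried, with log2 fold changes between -0.75 and -0.48 and adjusted p-values up to 0.00215. With library totals alone as the scaling, FC was above the limit of 0.7.

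Markers of several retinal cell types moved in the same direction as *Atxn1* in the same libraries. The 10 rod markers summed to between 66700 and 68530 CPM in WT and between 18130 and 23550 CPM in SCA7, and the 10 cone markers to between 1509 and 1809 CPM and between 274 and 303 CPM. Of the bipolar cell markers 5 of 8 were lower and 1 was higher (the list's median log2 fold change was -0.42), and of the amacrine cell markers 3 of 7 were lower, with a median of -0.25. Of the horizontal and ganglion cell markers 1 of 5 and 1 of 8 were lower, where 14.2% of all genes tested were lower. In the other direction, 10 of 10 microglia markers and 6 of 7 reactive glia markers were higher. Of the Müller glia markers 4 of 7 were higher and 1 was lower. In a bulk sample, fewer cells of a type and less RNA per cell cannot be told apart. The part of any of these cell types in the change of *Atxn1* was not tested. Markers of the lens and of the retinal pigment epithelium were also examined. The lens list differed widely within each genotype and summed to between 43.3 and 556 CPM in WT and between 31.1 and 889 CPM in SCA7. The pigment epithelium list summed to between 70.1 and 129 CPM in WT and between 24.6 and 46.2 CPM in SCA7, without overlap, and 2 of its 6 markers were lower, both under FC 0.7. Their part in the members' values was not tested.

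*Tbp* encodes the TATA-binding protein, the subunit of the general transcription factor TFIID that contacts promoter DNA, and lies at chr17:15499888-15528379 on the plus strand. It was measured at 34.0, 35.1, 38.2 and 37.9 CPM in WT and at 33.3, 32.8 and 33.2 CPM in SCA7. The groups did not overlap, but the gap between the lowest WT and the highest SCA7 library was small beside the spread of the WT libraries. The log2 fold change of -0.13 ± 0.06 did not pass the test (95% interval -0.27 to 0.00250, adjusted p = 0.133, edgeR; p = 0.0571, exact permutation test). In all, 3 of the 7 genes, *Atxn1*, *Atxn2* and *Tbp*, had no overlap between the genotypes, as had 37.5% of all genes tested. The exons of *Tbp* share 2582 bases, 19% of their union, with *Pdcd2* on the opposite strand. The libraries are stranded, but the strand option of the counting is not given in the sources used here, so reads of this stretch may have gone to either gene or to none.

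*Atn1* encodes atrophin-1, a nuclear corepressor, and lies at chr6:124742544-124756524 on the minus strand. It was listed with 51, 62, 34 and 70 counts in WT and 64, 80 and 81 counts in SCA7, which gave 0.871, 0.867, 0.638 and 1.07 CPM and 1.04, 0.937 and 0.787 CPM. The groups overlapped and the SE was the widest of the 7 genes (log2 fold change 0.08 ± 0.20, 95% interval -0.35 to 0.51, adjusted p = 0.796, edgeR). At this depth neither a rise to FC 1.42 nor a fall to FC 0.785 could be told from no change. In the annotation 3874 of the 4600 exon bases of *Atn1* (84.2%) are shared with *Gm45234*, a protein-coding gene model on the same strand, which was itself listed with 3 to 7 counts per library. Among protein-coding genes, the 203 that share 80% or more of their exon bases with another gene on the same strand had a median WT level of 0.131 reads per kb, and the 20248 that share none had a median of 92.4, with the union of exons as length. *Atn1* was at 12.9 on that scale. This comparison was chosen after seeing the low counts of *Atn1*; how the counting treated reads that fall on more than 1 gene is not given in the sources used here, and its part in the level of *Atn1* was not tested. The level of *Atn1* is therefore uncertain, and so is its place among the 7 genes.

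*Atxn2* encodes an RNA-binding protein of stress granules that binds poly(A)-binding protein, and lies at chr5:121711337-121816493 on the plus strand. Its levels were 41.7, 40.7, 42.6 and 40.7 CPM in WT and 36.6, 35.4 and 37.7 CPM in SCA7. The replicates lay close together, within a coefficient of variation of 2.30% in WT and 3.11% in SCA7, and all SCA7 libraries were below all WT libraries. The log2 fold change was -0.18 ± 0.06 (95% interval -0.30 to -0.06, adjusted p = 0.0294, edgeR; p = 0.0286, exact permutation test). The call did not hold in 5 of the 7 fits that left out a library. It was lost without WT replicate 1 (adjusted p = 0.0577), WT replicate 2 (adjusted p = 0.0533), SCA7 replicate 1 (adjusted p = 0.109), SCA7 replicate 2 (adjusted p = 0.132) or SCA7 replicate 3 (adjusted p = 0.0622), with log2 fold changes between -0.20 and -0.16 over the 7 fits. It was also lost without a filter on low counts (adjusted p = 0.130), and with library totals alone the log2 fold change was 0.01 (adjusted p = 0.897), on a scale where the median of all genes was shifted up by 0.19.

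*Atxn3* encodes a deubiquitinase that trims ubiquitin chains in protein quality control, and lies at chr12:101918901-101958246 on the minus strand. It was the steadiest of the 7 genes between genotypes, with 38.1, 38.5, 38.1 and 39.6 CPM in WT and 37.8, 39.3 and 38.3 CPM in SCA7. The groups overlapped, and the log2 fold change was -0.0036 ± 0.05 (adjusted p = 0.968, edgeR). Its 95% interval ran from FC 0.920 to FC 1.08.

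*Htt* encodes huntingtin, a large scaffold protein of vesicle transport and autophagy, and lies at chr5:34761740-34912534 on the plus strand. It was measured at 135, 131, 119.8 and 139.8 CPM in WT and at 137, 129 and 140.3 CPM in SCA7. The values of the genotypes were mixed, and the log2 fold change was 0.05 ± 0.07 (adjusted p = 0.642, edgeR), with a 95% interval from FC 0.934 to FC 1.14.

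*Cacna1a* encodes the pore-forming subunit of the P/Q-type calcium channel, which triggers transmitter release at many synapses, and lies at chr8:84388440-84640246 on the plus strand. Its levels were 18.5, 18.5, 15.9 and 18.9 CPM in WT and 17.5, 16.4 and 16.8 CPM in SCA7. WT replicate 3 was below all SCA7 libraries and the other WT libraries were above them. The log2 fold change was -0.09 ± 0.07 (adjusted p = 0.392, edgeR), with a 95% interval from FC 0.839 to FC 1.05.

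**Figure D2:**
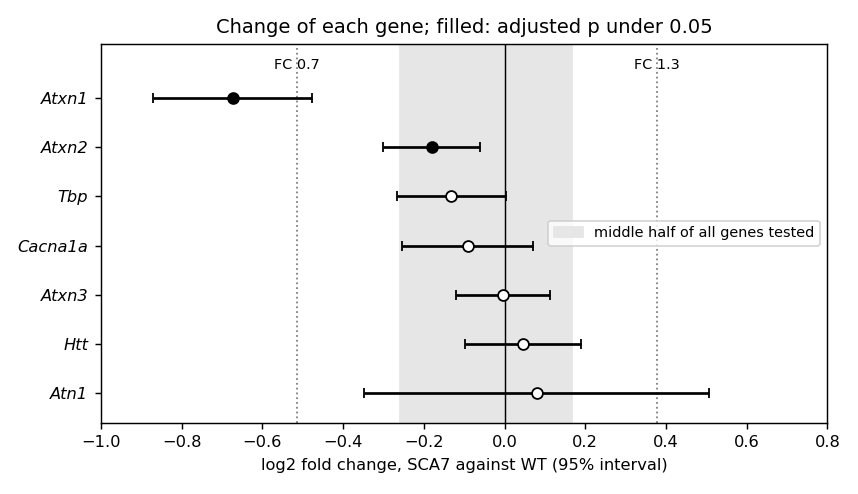
Log2 fold change (SCA7 against WT) of each of the 7 genes with its 95% interval from the edgeR fit; filled points passed at an adjusted p under 0.05, the grey band spans the quartiles of all 20128 genes tested, from -0.26 to 0.17, and dotted lines mark FC 0.7 and FC 1.3. The interval of Atxn1 lies outside the grey band, and those of the other 6 genes reach into it.

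The members did not move together across the WT libraries. WT replicate 3 had the highest level of *Atxn1*, *Atxn2* and *Tbp* and the lowest of *Atxn3*, *Cacna1a*, *Atn1* and *Htt* among the 4 WT libraries. WT replicate 4 had the highest level of *Atxn3*, *Cacna1a*, *Atn1* and *Htt* and the lowest of *Atxn1* and *Atxn2*. In WT replicate 3 the 100 genes with the most counts took 36.8% of the library and in WT replicate 4 they took 32.3%, the ends of the WT range. For *Atxn3* and *Atxn2* these differences were small, in *Atxn2* between 40.7 and 42.6 CPM.

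Ratios of the counts of 2 members within a library do not depend on how libraries are scaled. They were computed for the 15 pairs of the 6 genes other than *Atn1*, which was left out for its low counts, and were added after seeing the data. The ratio of *Atxn1* to *Htt* was 2.43, 2.40, 3.02 and 1.91 in WT and 1.40, 1.57 and 1.44 in SCA7. The ratio of *Atxn1* to *Atxn3* was 8.62, 8.16, 9.49 and 6.76 in WT and 5.09, 5.17 and 5.27 in SCA7. In the 5 pairs with *Atxn1* the mean log2 ratio differed by between -0.71 for *Htt* and -0.49 for *Atxn2*. The ratio of *Atxn2* to *Atxn3* also separated the genotypes, at 1.10, 1.06, 1.12 and 1.03 in WT and 0.969, 0.901 and 0.983 in SCA7 (difference -0.18), while those of *Atxn2* to *Cacna1a* (difference -0.09) and to *Tbp* (difference -0.05) and that of *Atxn3* to *Htt* overlapped. Pairs without *Atxn1* and *Atxn2* separated the genotypes too, *Atxn3* to *Tbp* (difference 0.13) and *Cacna1a* to *Htt* (difference -0.13) among them. In all, the genotypes did not overlap in 5 of 5 pairs with *Atxn1*, in 2 of 4 other pairs with *Atxn2* and in 2 of the 6 remaining pairs. The 5 pairs share the values of *Atxn1*, so they are not separate observations. The share over pairs of other genes was not computed, so these counts have no background. Of single genes tested, 37.5% had no overlap. In a design of 4 against 3 mice no pair passed after adjustment over the 15: the exact permutation p of the pairs with *Atxn1* was 0.0286 or 0.0571, and each came to 0.0952 after Benjamini-Hochberg adjustment.

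**Figure D3:**
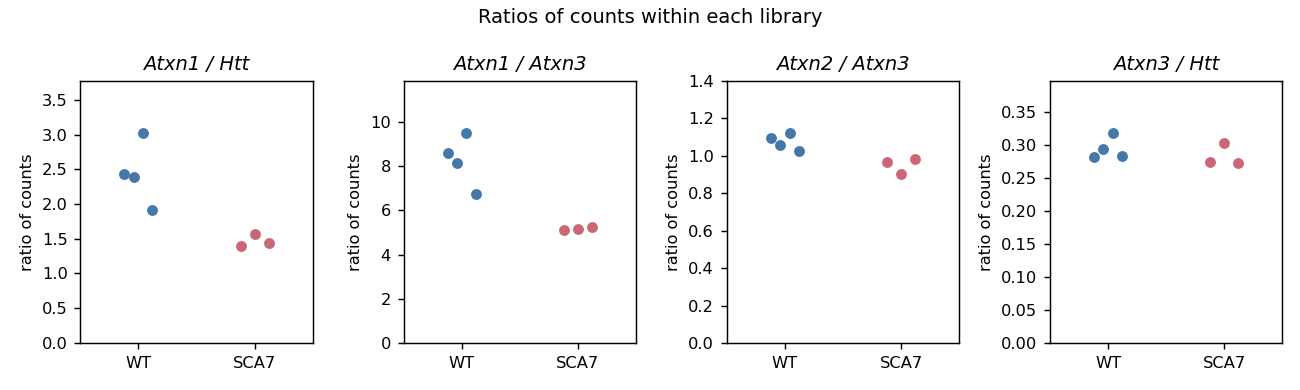
Ratio of the counts of 2 genes in the same library, 1 point per mouse (4 WT, 3 SCA7), with axes from 0. Both ratios with Atxn1 and the ratio of Atxn2 to Atxn3 are lower in all SCA7 mice than in all WT mice; the ratio of Atxn3 to Htt overlaps.

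Levels of different genes were compared in WT retina per length, as counts over the DESeq2 size factor and the median transcript length in kb (RPK, reads per kb). *Atxn1* was the highest at 5846 ± 709 RPK, above 87.8% of the 15422 protein-coding genes tested. *Atxn2* followed at 3474 ± 71.9 RPK, *Tbp* at 3164 ± 178 RPK, *Htt* at 3107 ± 204 RPK and *Atxn3* at 2667 ± 51.3 RPK, all between the 74.7th and the 79.6th percentile with this length. *Cacna1a* was at 1075 ± 83.7 RPK, at the 55.1st percentile, and *Atn1* at 77.4 ± 16.0 RPK, at the 19.4th percentile. *Tbp* and *Htt* did not differ beyond their spread: the ranges of the 4 libraries overlapped, *Tbp* was higher in 2 of 4, and without WT replicate 3 their order turned, with *Tbp* at 3113 RPK and *Htt* at 3202 RPK. All other neighbours in this order had ranges that did not overlap.

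The order in the middle of this list and the place among all protein-coding genes depend on the length used. With the longest transcript of each gene *Htt* came second at 687 RPK, followed by *Atxn3* at 496, *Atxn2* at 412, *Tbp* at 196 and *Cacna1a* at 156 RPK. With the union of exons *Atxn3* came second at 492 RPK, followed by *Htt* at 371, *Tbp* at 184, *Atxn2* at 182 and *Cacna1a* at 109 RPK. On that scale *Tbp* and *Atxn2* did not differ beyond their spread, with ranges of 173 to 194 and 179 to 187 RPK over the 4 libraries. *Atxn1* was first, *Cacna1a* sixth and *Atn1* last with each of the 3 lengths. All 3 lengths were applied to the same counts, so they do not check the uncertain level of *Atn1*. *Atxn1* also kept its place among protein-coding genes, at the 88.0th percentile with the longest transcript and the 88.3rd with the union of exons. *Tbp* came to the 36.2nd and the 39.9th percentile, *Atxn2* to the 50.6th and the 39.7th and *Cacna1a* to the 33.0th and the 31.2nd. *Htt* came to the 63.8th and the 55.6th percentile and *Atxn3* to the 55.4th and the 63.3rd. The median transcript of *Tbp* is 791.5 bases long and its longest is 12794, and for *Atxn2* the lengths are 823 and 6946 bases.

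**Figure D4:**
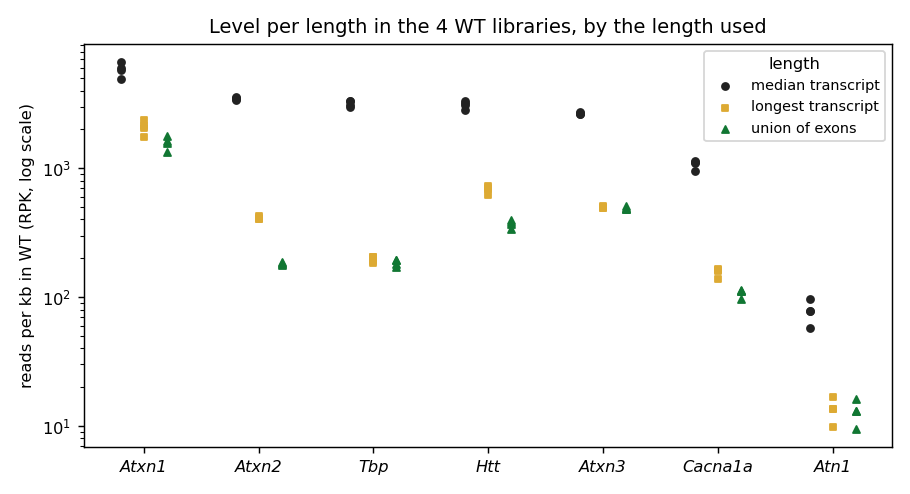
Reads per kb (log scale) of the 7 genes in the 4 WT libraries, with the median transcript length (circles), the longest transcript (squares) or the union of exons (triangles) as the length. Atxn1 is the highest and Atn1 the lowest with every length, and Atxn2, Tbp, Htt and Atxn3 change places. Every length uses the same counts, and the place of Atn1 is uncertain, as most of its exon bases are shared with another gene.

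For each gene the 2 genes with the most similar profile were sought among the 10053 genes that averaged 10 CPM or more, by the root mean square distance of centred log2 CPM over the 7 libraries. For *Atxn1* they were *Mettl25* at a distance of 0.0351 and *Rdm1* at 0.0353, with log2 fold changes of -0.62 and -0.71. For *Atxn2* they were *Zfp62* at 0.0142 and *Arhgap26* at 0.0160, for *Atxn3* *Zzef1* and *Dhx9*, and for *Htt* *Csnk2a2* and *Eml4*. For *Cacna1a* they were *Sgip1* and *Ubp1*, for *Tbp* *Gclc* and *Snap25*, and for *Atn1*, at the largest distances of 0.0616 and 0.0758, *Atp11a* and *Cnnm3*. All libraries share their scaling and their composition, so these distances only describe profiles.

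Partners and relatives of the 7 proteins were listed in 9 groups with 97 genes, of which 96 were tested. In SCA7 retina 11 were higher, 19 were lower and 66 did not pass, with a median log2 fold change of 0.00769. The shares passing stand beside 14.2% higher and 14.2% lower among all genes. Past the fold limits, 2 of the 96 were above FC 1.3, beside 7.47% of all genes tested. Under FC 0.7 were 5 of the 96, beside 7.91% of all genes tested. In the same libraries 6 of 7 reactive glia markers were higher, with a median of 2.30 on the log2 scale, and 4 of 7 Müller glia markers were higher and 1 was lower, with a median of 0.31. The part of these cells in the genes that rose was not tested. The number of higher genes moved with single libraries, to 17 without WT replicate 3 and to 6 without SCA7 replicate 1. Of the 30 genes that passed, 14 also passed in all 17 other settings, among them all 7 past the fold limits. The RPK of a list gene is with the median transcript length, and the order within a list can differ with another length or in CPM.

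Of the 11 partners of ATXN1 and targets of Capicua, 1 was lower, 1 was higher and 9 did not pass. The number higher was 3 without WT replicate 3, with *Etv5* and *Dusp6* added, and 2 without WT replicate 4, without SCA7 replicate 2 or by DESeq2. *Etv4*, an ETS transcription factor repressed by Capicua, fell from 4.38 ± 0.432 CPM to 2.61 ± 0.156 CPM (log2 fold change -0.75 ± 0.12, adjusted p = 5.93e-04, edgeR). The higher gene was *Rbm17*, a splicing factor that binds ATXN1, at 48.2 CPM in the WT and 58.7 CPM in the SCA7 mice (log2 fold change 0.28). *Ywhae*, a 14-3-3 protein that binds ATXN1 and the gene with the highest RPK of the list (24157), did not pass (log2 fold change 0.06, adjusted p = 0.528). *Rbm17* lies outside the rule for named genes, as do the other genes named below without a fold limit, and they were named after their values were seen.

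Of the 8 partners of ATXN2, 0 passed in either direction by edgeR, and 0 did by DESeq2, by limma-voom or at an unadjusted p under 0.05. *Tardbp*, the gene with the highest RPK of the list, which encodes the RNA-binding protein TDP-43, had a log2 fold change of -0.13 (adjusted p = 0.226). Without WT replicate 3, 3 of the 8 were lower, *Atxn2l*, *Ddx6* and *Tardbp*, the last with a log2 fold change of -0.20 (adjusted p = 0.0154). Of the 8 partners of ATXN3, 2 were higher and 6 did not pass. The higher genes were *Ube4b*, a ubiquitin ligase, with a log2 fold change of 0.25, and *Becn1*, the autophagy factor beclin-1, with 0.21. The call of *Ube4b* was lost without SCA7 replicate 1 and that of *Becn1* without any 1 of the 3 SCA7 replicates, and without WT replicate 3 the number higher was 4, with *Ufd1* and *Nploc4* added. *Vcp*, the ATPase that extracts ubiquitinated proteins and the gene with the highest RPK of this list, did not pass (log2 fold change 0.08, adjusted p = 0.386).

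Of the 9 other pore-forming subunits of voltage-gated calcium channels, 4 were lower and 5 did not pass, and 0 were higher by edgeR, DESeq2 or limma-voom, or at an unadjusted p under 0.05. *Cacna1f*, which forms the L-type channel of the photoreceptor synapse, fell from 173 ± 25.3 CPM to 112 ± 2.29 CPM (log2 fold change -0.62 ± 0.10, adjusted p = 7.44e-04, edgeR). It had the highest mean RPK of these genes in WT, 4659 ± 682, but *Cacna1h*, at 4463 ± 559, was within that spread. The other lower genes were *Cacna1c* (log2 fold change -0.25), *Cacna1h* (-0.30) and *Cacna1s* (-0.43), each of which lost its call in 4 or 5 of the 7 fits that left out a library. *Cacna1b*, which forms the N-type channel, had a log2 fold change of 0.03 (adjusted p = 0.800). Of the 8 auxiliary subunits, 2 were lower, *Cacna2d3* from 48.3 ± 3.43 CPM to 28.3 ± 0.486 CPM (log2 fold change -0.77 ± 0.07, adjusted p = 5.78e-06, edgeR) and *Cacnb2* from 238 to 184 CPM (log2 fold change -0.37). *Cacna2d4*, which serves photoreceptor channels and had the highest RPK of its list (44459), did not pass (log2 fold change -0.09, adjusted p = 0.501), but did without WT replicate 3 (-0.17, adjusted p = 0.0404), where *Cacnb3* was higher as well. The rod, cone, bipolar and amacrine markers that were lower in the same libraries stand beside these values, and their part was not tested.

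Of the 15 subunits of TFIID other than TBP, 2 were higher, 5 were lower and 8 did not pass. *Taf4b*, a variant of TAF4, fell from 31.6 ± 2.51 CPM to 15.7 ± 1.31 CPM, the largest change in any of the 9 lists (log2 fold change -1.01 ± 0.08, adjusted p = 3.72e-06, edgeR). *Taf9b*, a variant of TAF9, rose from 10.4 ± 0.656 CPM to 15.2 ± 0.0947 CPM (log2 fold change 0.56 ± 0.07, adjusted p = 1.41e-04, edgeR), and *Taf1*, the largest subunit, from 92.9 ± 5.96 CPM to 125 ± 3.0 CPM (log2 fold change 0.43 ± 0.06, adjusted p = 3.61e-04, edgeR). *Taf10*, with the highest RPK of the list, was lower (log2 fold change -0.21, adjusted p = 0.0252), but not without any 1 of the 3 SCA7 replicates. *Taf4*, *Taf5* and *Taf7* were also lower, with log2 fold changes of -0.39, -0.37 and -0.26. The summed level of the 15 genes was between 486 and 494 CPM in WT and between 480 and 489.7 CPM in SCA7. Of the 14 tested genes among the other partners and paralogs of TBP, 2 were higher (*Gtf2a1* and *Brf2*), 2 were lower (*Brf1* and *Taf1d*) and 10 did not pass, with log2 fold changes from -0.42 to 0.30. The call of *Gtf2a1* was lost without SCA7 replicate 1, and that of *Brf2* without WT replicate 1, SCA7 replicate 2 or SCA7 replicate 3. *Tbpl2*, the paralog used in the oocyte, did not pass the filter, and *Drap1*, with the highest RPK of the list, did not pass the test (log2 fold change 0.02, adjusted p = 0.816).

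Of the 8 genes listed as partners or as the paralog of ATN1, 2 were higher (*Hdac1* and *Wwp2*), 2 were lower (*Rere* and *Baiap2*) and 4 did not pass. *Rere*, the paralog of *Atn1*, was at 86.6 ± 12.2 CPM in the WT and 66.6 ± 3.02 CPM in the SCA7 mice (log2 fold change -0.38 ± 0.10, adjusted p = 0.0124, edgeR), a call that was lost without SCA7 replicate 1. The call of *Baiap2* was lost without WT replicate 2, SCA7 replicate 2 or SCA7 replicate 3. Of the 15 partners of huntingtin, 2 were higher (*Hap1* and *Hip1r*), 3 were lower and 10 did not pass. The call of *Hap1* was lost without WT replicate 1, WT replicate 2, SCA7 replicate 1 or SCA7 replicate 3, and that of *Hip1r* without SCA7 replicate 1, while by DESeq2 4 were higher, with *F8a* and *Rest* added. *Optn*, which encodes the autophagy receptor optineurin, fell from 160.0 ± 11.2 CPM to 95.5 ± 3.52 CPM (log2 fold change -0.74 ± 0.07, adjusted p = 9.78e-06, edgeR). The other lower genes were *Rasd2* (log2 fold change -0.49), a small GTPase known from the striatum, and *Bdnf* (-0.45), a neurotrophin, whose call was lost without WT replicate 3, WT replicate 4, SCA7 replicate 1 or SCA7 replicate 2 and held in 8 of the 17 other settings, limma-voom not among them. *Dctn1*, a dynactin subunit and the gene with the highest RPK of the list, did not pass (log2 fold change 0.11, adjusted p = 0.277).

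**Figure D5:**
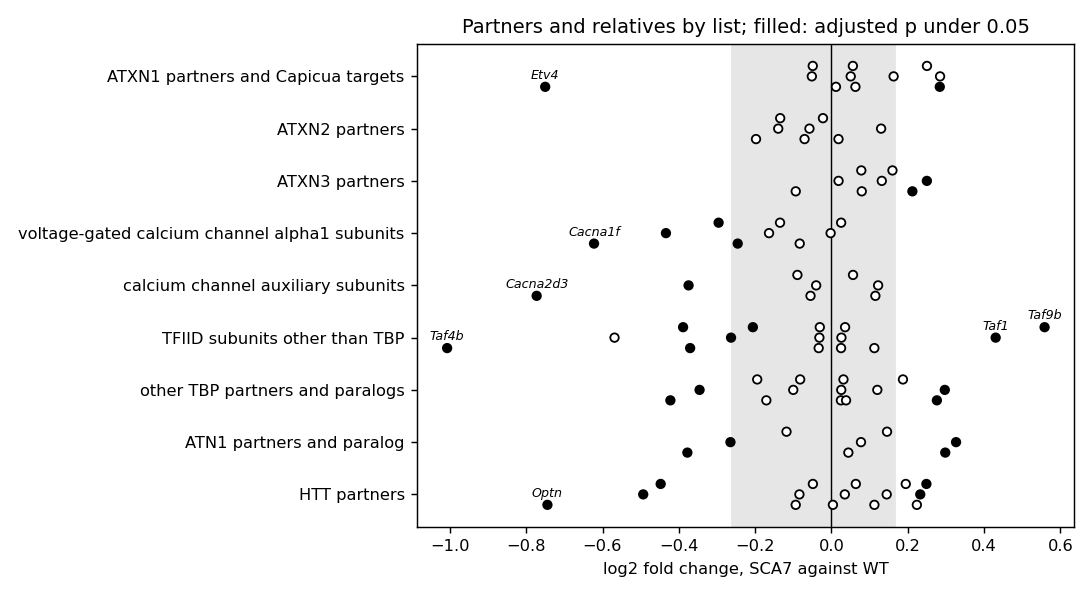
Log2 fold change (SCA7 against WT) of the 96 tested partners and relatives, 1 point per gene and 1 row per list; filled points passed at an adjusted p under 0.05, the grey band spans the quartiles of all genes tested, and names mark genes past FC 0.7 or FC 1.3. Both directions occur in the TFIID list, from Taf4b at -1.01 to Taf9b at 0.56, while the 4 genes that passed among the pore-forming calcium channel subunits are all lower.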

How the data were processed

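Total RNA was extracted from 2 retinas per mouse and depleted of ribosomal RNA, and stranded libraries were sequenced as single reads of 50 bases. Per the labels and the study's methods, the authors mapped reads to mm10 with TopHat2 2.0.14 and Bowtie2 2.1.0 and counted them per gene of Ensembl 90 with HTSeq 0.6.1. The deposited table holds raw counts, whole numbers without normalization. Symbols, exons and lengths came from GENCODE M21 (GRCm38), matched by gene ID for 52403 of 52550 genes.

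Genes were kept with filterByExpr of edgeR 4.0.16 (R 4.3.3), scaled by TMM and compared by the robust quasi-likelihood test with genotype as the only term. p-values were adjusted by Benjamini-Hochberg across all 20128 genes, and the threshold was 0.05. DESeq2 1.42.0 and limma-voom (limma 3.58.1) were alternatives, with other scalings, filters and each library left out. Single values were also compared by exact permutation of log2(CPM + 0.01). Standard errors of the log2 fold changes were derived from the quasi-likelihood F statistic. The steps were tested on simulated data. Mice are the replicates; counting error is part of their spread.

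Named were all members, list genes past the threshold and FC 0.7 or 1.3, and the gene with the highest RPK of each list. The members and lists were chosen with earlier results of these data known. The single values of some genes are not reported here.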

Additional observations from a re-analysis of the deposited data

Results flagged for a closer look

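The level of *Cacna1a* in WT replicate 3 was 15.9 CPM, apart from the other 3 WT libraries at 18.5, 18.5 and 18.9 CPM. Its gap to the nearest of them took 0.839 of the range of the 4 libraries, over the 95% critical value of Dixon's test. The 7 genes were examined this way in the WT group, and chance alone marks about 1 in 20 such groups. Without this library the log2 fold change of *Cacna1a* was -0.14 (adjusted p = 0.0838, edgeR), beside -0.09 (adjusted p = 0.392) with all libraries.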

How the results depend on the processing

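With library totals alone as the scaling, the median log2 fold change of all genes rose by 0.19, and 7296 genes were higher and 1495 lower, beside 2853 and 2852 with TMM. On that scale 2 members were higher (*Atxn3*, log2 fold change 0.19, adjusted p = 0.0286; *Htt*, 0.23, adjusted p = 0.0356), 1 was lower and 0 were past the fold limits; *Atxn2* turned to 0.0103 and, without passing, *Tbp* to 0.06 and *Cacna1a* to 0.10, and 43 partner genes were higher and 9 lower. Each of these fold changes includes the shift of 0.19. The number of lower members was 1 without a filter on low counts, 1 at an adjusted p under 0.01, and between 1 and 2 when each library was left out; the difference is *Atxn2* in each case. Members higher stayed at 0 and members past the fold limits at 1 with each library left out. Of the partner genes, 12 were lower at an adjusted p under 0.01, 18 were higher with *Xist* as a covariate, and with each library left out between 6 and 17 were higher and between 13 and 25 lower. The replicate block put 17 partner genes higher and changed no call of a member. Over all genes it put 3461 higher and 3418 lower. Same-numbered mice correlated at 0.00801, 0.197 and 0.0809 in their deviations from the group means. SCA7 replicate 2 correlated best with WT replicate 2, and SCA7 replicates 1 and 3 with WT replicate 4, a number that no SCA7 mouse has. The titles also hold a number per mouse that lies close between same-numbered mice, and the labels do not explain it. Whether these mice were matched is therefore not settled, and the main test did not pair them. The causes of these differences were not tested. Counts of 34 to 81 limit *Atn1*, whose direction changed in 2 of 17 settings.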
